A study of Mus musculus with 8 samples.

Results

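The 34 genes described here encode the enzymes and transporters that carry glucose to lactate, together with genes that are switched on when oxygen is low. They were taken by gene symbol from a fixed list, and all 34 were found among the 31053 genes of the count matrices. Aldoa stood on 2 rows of the feature list, and its main row was used, since the other held 2 UMIs at 8 weeks and 0 at P10. The levels come from single cells of whole intervertebral discs, lumbar and proximal tail together. All mice carried Tagln-CreERt2, a tamoxifen-inducible Cre driven by the transgelin gene of contractile cells, and R26tdTomato, a Cre-dependent reporter. All received tamoxifen at day 5 after birth, and no mouse without the alleles or without tamoxifen was part of the comparison. Discs were taken at 8 weeks (4 GEO samples) or at P10, day 10 after birth (4 GEO samples). Cells of an age shared 1 matrix and 1 barcode suffix, so they could not be traced to the GEO samples. An age was therefore treated as 1 library without replicates. Age effects and library effects cannot be told apart, and neither ages nor classes could be tested against each other.

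Glycolysis splits glucose into pyruvate, which lactate dehydrogenase turns into lactate for export. In low oxygen the factor HIF-1 alpha, product of Hif1a, escapes its prolyl hydroxylases (Egln1, Egln3) and binds short response elements beside many of these genes. The gel-like centre of the disc, the nucleus pulposus (NP), descends from the notochord and has no vessels of its own, and its cells are known for a metabolism that leans on glycolysis.

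The 8-week matrix held 7597 barcodes and 115097999 UMIs (unique molecular identifiers, 1 per captured RNA molecule), and the P10 matrix 7690 barcodes and 143203550 UMIs. After filtering, 6342 cells of 8 weeks (median 14683.5 UMIs) and 6999 cells of P10 (median 18300 UMIs) were kept, and the ages shared 10 barcodes. Cells were clustered without the 34 genes and without the other genes of energy metabolism and hypoxia listed below, so that these genes did not shape the classes. NP-like cells numbered 2302 at 8 weeks and 304 at P10. Their 11 markers summed to 26558 CPM (UMIs per 1000000 gene UMIs of the class) at 8 weeks and 30824 CPM at P10, against 444 and 205 CPM in chondrocyte-like cells, and 10 of the 11 were seen, with Noto at 0 at both ages. The other classes with enough cells were chondrocyte-like (642 cells at 8 weeks, 4779 at P10), hypertrophic chondrocyte-like (1043 and 299), tendon fibroblast-like (1040 and 856) and endothelial-like (131 and 121). Different clusters made up most of the NP-like, chondrocyte-like, tendon fibroblast-like and hypertrophic chondrocyte-like cells at the 2 ages, and names rest on markers alone. Stress and immune genes (Egr2, Dnajb1, Irf7, Lcn2) stood among the leading genes of some 8-week clusters. Free RNA was present: Col2a1, a cartilage collagen gene, reached 32348 CPM in P10 neutrophil-like cells, against 73848 CPM in P10 chondrocyte-like cells.

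The promoter windows below, 250 bases before to 50 after a RefSeq start (GRCm38.p6), are shown for genes on which the results turn, with the core of the hypoxia response element, ACGTG or GCGTG on either strand, in capitals. On the minus strand of the window these read CACGT or CACGC, and CACGTG counts once on each strand. A window was at hand for 31 of the 34 genes (not for Slc2a3, Bnip3l and Ndrg1), and 28 of them (90.3%) held the core in at least 1 window, against 46.7% of 27025 genes with a window. By window, the core stood in 36 of 45 (80.0%) of these genes' windows, against 43.8% of 32851 windows of the genome. The core holds a CG, and base composition was not matched, so the shares are a description of letters and not of bound sites. Slc2a1 (glucose transporter, chr4:119108495-119108794, plus strand), Hk2 (hexokinase, chr6:82774405-82774704, minus strand), Pgk1 (phosphoglycerate kinase, chrX:106186850-106187149, plus strand), Slc16a3 (lactate exporter, chr11:120948817-120949116, plus strand) and Bnip3 (mitophagy receptor, chr7:138909457-138909756, minus strand) hold the core, and Pgam2 (muscle phosphoglycerate mutase, chr11:5803747-5804046, minus strand) does not.
Slc2a1: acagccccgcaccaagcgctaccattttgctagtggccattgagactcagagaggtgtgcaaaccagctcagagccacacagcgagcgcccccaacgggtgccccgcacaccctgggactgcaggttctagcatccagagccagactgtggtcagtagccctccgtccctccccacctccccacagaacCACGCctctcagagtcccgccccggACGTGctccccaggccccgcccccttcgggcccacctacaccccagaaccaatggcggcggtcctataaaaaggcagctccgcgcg
Hk2: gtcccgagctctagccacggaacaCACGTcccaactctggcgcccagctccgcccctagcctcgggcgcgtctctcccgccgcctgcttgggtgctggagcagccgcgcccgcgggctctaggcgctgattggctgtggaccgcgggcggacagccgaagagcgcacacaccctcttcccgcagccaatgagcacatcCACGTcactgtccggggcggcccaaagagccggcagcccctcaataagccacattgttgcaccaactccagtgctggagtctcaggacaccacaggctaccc
Pgk1: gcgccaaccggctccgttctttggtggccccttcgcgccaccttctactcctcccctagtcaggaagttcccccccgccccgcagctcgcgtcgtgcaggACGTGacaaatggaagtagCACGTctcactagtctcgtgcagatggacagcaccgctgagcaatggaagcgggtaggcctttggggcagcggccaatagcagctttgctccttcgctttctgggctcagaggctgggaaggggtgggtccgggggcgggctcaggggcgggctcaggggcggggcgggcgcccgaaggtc
Slc16a3: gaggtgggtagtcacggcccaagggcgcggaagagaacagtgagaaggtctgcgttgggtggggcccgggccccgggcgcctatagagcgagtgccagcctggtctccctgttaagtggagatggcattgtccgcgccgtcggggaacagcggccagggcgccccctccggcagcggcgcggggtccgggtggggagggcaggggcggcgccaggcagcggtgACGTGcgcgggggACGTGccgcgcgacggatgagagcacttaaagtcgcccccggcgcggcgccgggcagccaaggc
Bnip3: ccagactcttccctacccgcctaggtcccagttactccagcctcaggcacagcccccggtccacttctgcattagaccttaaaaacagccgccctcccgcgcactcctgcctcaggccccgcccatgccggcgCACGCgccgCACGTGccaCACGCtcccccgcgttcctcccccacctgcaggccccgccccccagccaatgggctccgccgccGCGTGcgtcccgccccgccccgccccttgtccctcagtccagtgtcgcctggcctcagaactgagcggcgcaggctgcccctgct
Pgam2: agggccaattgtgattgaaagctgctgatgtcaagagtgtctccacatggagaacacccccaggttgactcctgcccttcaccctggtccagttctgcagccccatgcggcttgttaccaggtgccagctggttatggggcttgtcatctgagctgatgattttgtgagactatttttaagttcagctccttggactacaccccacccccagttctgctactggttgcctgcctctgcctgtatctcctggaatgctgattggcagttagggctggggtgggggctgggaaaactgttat
The Bnip3 window holds 5 matches, the Slc2a1, Hk2, Pgk1 and Slc16a3 windows 2 each and the Pgam2 window 0. The windows of Gpi1 and Tpi1, not printed here, hold 0 as well.

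In NP-like cells the glycolytic enzymes from Gpi1 to Pkm, apart from the phosphofructokinase Pfkp, were lower at 8 weeks than at P10, while Hk2, Pfkfb3, Ldhb, Slc16a1, Egln1, Hif1a and Vegfa were higher, with intervals clear of 0. The Hif1a ratio lay below that of the median gene and did not keep its sign under every alternative. All 34 genes passed the minimum of 100 UMIs over both ages. Of these, 2 were at least 2-fold higher at 8 weeks (15.1% of all 11318 genes passing were) and 3 at least 2-fold lower (2.76% of all genes). The shares of all genes moved with the UMI minimum. At a minimum of 30 UMIs 18.4% were at least 2-fold higher and 4.19% lower, and at 500 UMIs 11.6% and 1.68%. The listed genes numbered 2 higher and 3 lower at 30 UMIs, and 2 and 2 at 500. The median log2 ratio of 8 weeks over P10 was -0.39 over the 34 genes, against 0.35 over all genes that passed. Relative to the median gene, 27 of the 34 genes lay below it, 11 of them by at least 2-fold, as 679 of the 11318 genes did, and 1 lay above it by at least 2-fold, as 819 genes did (13.2% of all genes in either direction). Intervals in brackets are exact 95% intervals and cover counting error only, since cells of 1 library are not replicates. In these cells the 7 erythroid markers summed to 169 CPM at 8 weeks and 2.24 CPM at P10, and the 14 chondrocyte markers to 11901 and 13939.5 CPM; the part of other cells' RNA in the result was not tested. In whole-class sums, fewer RNA molecules of a gene per cell and a larger total of other RNAs cannot be told apart.

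**Figure D1:**
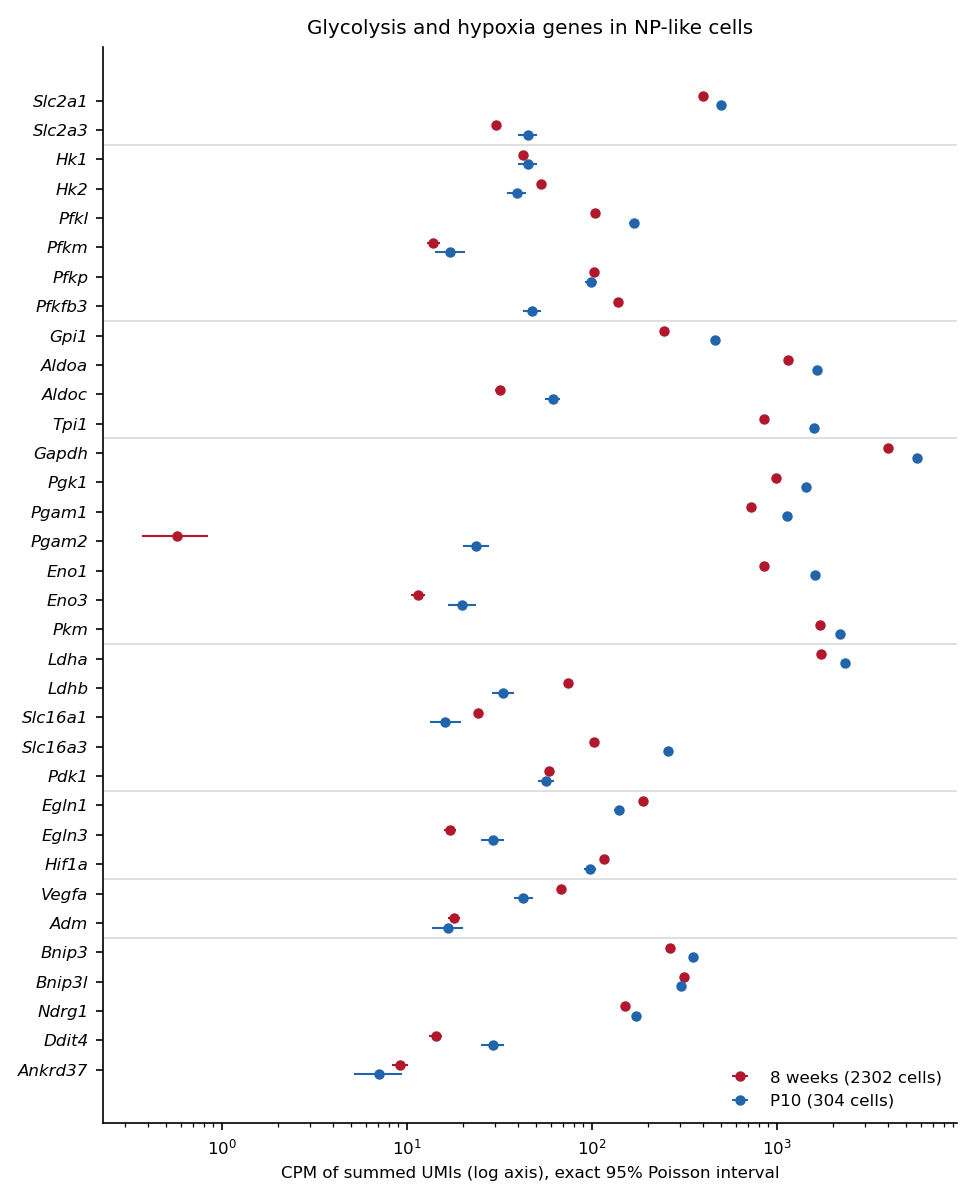
Level of each of the 34 genes in NP-like cells (CPM of summed UMIs, log axis) at 8 weeks (red, 2302 cells) and at P10 (blue, 304 cells), grouped by step; bars are exact 95% Poisson intervals. Gapdh, Eno1 and Tpi1 lie lower at 8 weeks, Pfkfb3 and Ldhb lie higher, and Pgam2 shows the widest gap.

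Glucose enters through the transporters Slc2a1 and Slc2a3. Slc2a1 (chromosome 4, 119108711 to 119137983, plus strand, GRCm38) stood at 398 CPM at 8 weeks and 501 CPM at P10, a log2 ratio of -0.33 (-0.39 to -0.28). Slc2a3, the high-affinity transporter, stood at 30.4 CPM at 8 weeks and 44.9 CPM at P10 (log2 -0.56). The intervals of the 2 ages did not overlap for either gene. Cell by cell, Slc2a1 had a median of 364 CPM at 8 weeks (10th to 90th percentile 75.2 to 916) and 442 CPM at P10 (146 to 1042), so the cells of the ages overlapped widely. After each cell was thinned to 2000 UMIs, 53.4% of 2205 cells at 8 weeks and 59.0% of 295 cells at P10 kept a Slc2a1 UMI, against 92.3% and 96.4% unthinned.

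The entry and control steps went different ways. Hk2, the inducible hexokinase, stood at 52.9 CPM at 8 weeks and 39.2 CPM at P10 (log2 0.43, 0.25 to 0.62), and Hk1, the housekeeping form, at 42.5 and 44.9 CPM with overlapping intervals. Pfkfb3 makes fructose 2,6-bisphosphate, the activator of phosphofructokinase, and stood at 138 CPM at 8 weeks and 47.5 CPM at P10. Its log2 ratio of 1.54 (1.38 to 1.71) was the highest of the 34, and 22.2% of thinned cells held a UMI at 8 weeks against 8.47% at P10. The liver-type phosphofructokinase Pfkl was lower at 8 weeks (104 against 169 CPM, log2 -0.69) and the platelet-type Pfkp, at 102 and 99.1 CPM, had overlapping intervals. The share of Pfkp among the UMIs of the 3 phosphofructokinase genes was accordingly 46.3% (45.3 to 47.3) at 8 weeks and 34.8% (32.6 to 37.0) at P10. The muscle-type Pfkm was low at both ages, at 13.9 and 17.2 CPM.

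Apart from the hexokinase and phosphofructokinase genes, every enzyme gene from Gpi1 to Pkm was lower at 8 weeks, with log2 ratios between -0.95 and -0.37 apart from Pgam2. Gpi1, glucose phosphate isomerase, stood at 244 CPM at 8 weeks and 465 CPM at P10 (log2 -0.93). Tpi1, triose phosphate isomerase, stood at 855 against 1581 CPM (log2 -0.89), and Aldoa, the main aldolase, at 1145 against 1641 CPM (log2 -0.52). Aldoc, its brain-type form, was at 31.7 against 61.3 CPM. Gapdh was at 3972 CPM at 8 weeks and 5743 CPM at P10 (log2 -0.53, -0.55 to -0.52), and its single-cell medians were 3743 and 5417 CPM. Pgk1 (chromosome X, 106187100 to 106203699, plus strand), whose promoter is printed above, stood at 986 against 1429 CPM (log2 -0.54). Pgam1 was at 720 against 1133 CPM (log2 -0.65) and Eno1, the main enolase, at 847 against 1612 CPM (log2 -0.93). Pkm, pyruvate kinase, differed less, at 1707 against 2201 CPM (log2 -0.37). The 8-week interval lay wholly below the P10 interval for each of these genes, and also for Eno3, the muscle enolase, at 11.5 against 19.9 CPM. Gapdh, Pgk1, Ldha and other genes of this set have near-identical copies in the genome, and how reads shared with a copy were counted is not given in the sources used here. Eno1b, a copy of Eno1, had 47 UMIs over all kept cells at each age.

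Pgam2 (chromosome 11, 5801640 to 5803733, minus strand) held 25 UMIs at 8 weeks and 158 at P10, or 0.569 CPM (0.368 to 0.840) and 23.6 CPM (20.1 to 27.6). The level was thus 41.5-fold lower at 8 weeks (log2 -5.38, -6.05 to -4.76). The gene is without a core match in its window, as are Gpi1 and Tpi1. Few cells carried it: 10 of 2302 cells at 8 weeks and 32 of 304 at P10, and the 5 highest cells held 80.0% and 68.4% of the UMIs. Its highest level among NP-like clusters was 34.1 CPM in cluster 21 at P10 (222 P10 cells, led by Car1, Myl7, Sln and Tagln). The 9 skeletal muscle markers summed to 3.44 CPM in NP-like cells at 8 weeks and 5.23 CPM at P10, with Myh4 and Myh8 at 0 at both ages. The 4 satellite cell markers summed to 1 UMI at 8 weeks and 0 at P10. In other P10 classes it was 7.31 CPM in mural-like cells (4 UMIs) and 0 in muscle satellite-like cells.

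The genes for the fate of pyruvate and lactate split by isoform. Ldha, the lactate-forming subunit, stood at 1741 CPM at 8 weeks and 2329 CPM at P10 (log2 -0.42). Ldhb, which favours pyruvate, stood at 74.4 against 33.0 CPM (log2 1.17, 0.97 to 1.37), so its share of both subunits' UMIs was 4.10% (3.96 to 4.24) at 8 weeks and 1.40% (1.22 to 1.59) at P10. The lactate exporter Slc16a3 (MCT4) was lower, at 103 against 258 CPM (log2 -1.33, -1.41 to -1.24), and Slc16a1 (MCT1) higher, at 24.3 against 16.1 CPM (log2 0.59). Slc16a3 therefore made up 80.9% of the UMIs of both transporters at 8 weeks and 94.1% at P10. Thinned to 2000 UMIs, 19.5% of cells at 8 weeks and 39.7% at P10 held a Slc16a3 UMI. Pdk1, which restrains pyruvate entry into mitochondria, stood at 58.6 and 56.7 CPM with overlapping intervals.

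Among the oxygen-sensing genes, Hif1a stood at 116 CPM at 8 weeks and 97.9 CPM at P10, a log2 ratio of 0.25 that lies 0.11 below the median gene. Egln1, the main prolyl hydroxylase, stood at 188 against 140 CPM (log2 0.43), and Egln3 at 17.1 against 29.2 CPM (log2 -0.77). Of the secreted factors, Vegfa, the vessel growth factor, was at 68.4 against 42.6 CPM (log2 0.68), and Adm, adrenomedullin, at 18.0 against 16.6 CPM with overlapping intervals. Of the other targets, Bnip3 was lower (263 against 352 CPM, log2 -0.42). The related Bnip3l was at 315 and 302 CPM and Ndrg1, a stress-response gene, at 151 against 174 CPM. Ddit4, an inhibitor of mTORC1, stood at 14.3 against 29.0 CPM (log2 -1.02, -1.25 to -0.78), and the low Ankrd37 at 9.15 and 7.03 CPM with overlapping intervals. Canonical HIF-1 targets thus lay on both sides of 0.

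Within the 8-week NP-like cells the 2 large clusters differed. In cluster 2 (1005 cells, led by Inmt, Tmem255a and Irf7, median 10204 UMIs), Ndrg1 stood at 246 CPM, against 112 CPM in cluster 7 (1154 cells, led by Nrn1, Sostdc1 and Hopx, median 19866.5 UMIs). Slc2a3 stood at 55.4 against 22.1 CPM, Adm at 29.9 against 13.2 CPM, Egln3 at 31.3 against 12.2 CPM and Bnip3 at 347 against 238 CPM. Slc2a1, Gpi1, Pfkfb3, Aldoa, Tpi1, Gapdh, Slc16a3, Vegfa, Bnip3l, Egln1 and Hif1a were also higher in cluster 2. Eno1 went the other way, at 698 against 883 CPM, as did Ddit4 at 8.56 against 15.7 CPM. So did Ldha (1562 against 1836 CPM), Pkm, Pgk1, Pgam1, Hk1, Hk2, Aldoc, Ldhb, Slc16a1 and Ankrd37 (6.28 against 10.0 CPM). The genes thus split between the clusters. The intervals of the clusters did not overlap for these genes, and depth per cell differed with them; its part in the result was not tested. The cycling cluster 14 held 131 cells of 8 weeks and 42 of P10 and had the highest Eno1 (1011 CPM), Pgk1 (1191 CPM) and Pgam1 (906 CPM) levels of the 3 clusters at 8 weeks, with the lowest Slc2a1 (255 CPM). Compared between ages within cluster 14, 2 of 28 passing genes were at least 2-fold higher (12.6% of all genes) and 3 at least 2-fold lower (2.00%), with a median log2 ratio of -0.52 against 0.29 for all genes. At P10, cluster 21 stood above cluster 7 (29 cells) in Bnip3 (379 against 223 CPM), Egln3 (34.1 against 6.42 CPM) and Slc2a1 (560 against 344 CPM). It stood below cluster 7 in Eno1 (1460 against 1938 CPM). The Egln3 level of cluster 7 rests on 4 UMIs (1.75 to 16.4 CPM). P10 cells of cluster 14 lay between for these genes, with Bnip3 at 325, Egln3 at 22.4, Slc2a1 at 407 and Eno1 at 1915 CPM.

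In chondrocyte-like cells 6 of 33 passing genes were at least 2-fold higher at 8 weeks (24.5% of all genes) and 12 at least 2-fold lower (7.24%), with a median of -0.16 against 0.39 for all genes. The higher ones were Slc2a1, Hk1, Hk2, Pfkfb3, Vegfa and Hif1a. Hk2 stood at 544 CPM at 8 weeks and 83.5 CPM at P10 (log2 2.70, 2.65 to 2.75), and Pfkfb3 at 186 against 22.3 CPM (log2 3.06). Slc2a1 was at 930 against 265 CPM (log2 1.81), Vegfa at 335 against 72.1 CPM (log2 2.22), Hk1 at 62.4 against 28.3 CPM (log2 1.14) and Hif1a at 582 against 273 CPM (log2 1.09). The lower ones were the phosphofructokinase Pfkl, 8 enzymes (Gpi1, Aldoc, Tpi1, Gapdh, Pgk1, Pgam1, Eno1 and Ldha), the exporter Slc16a3, and Bnip3 and Egln1. Pgk1 stood at 129 CPM at 8 weeks and 708 CPM at P10 (log2 -2.46), Tpi1 at 110 against 558 CPM (log2 -2.34), Eno1 at 156 against 670 CPM (log2 -2.11) and Gapdh at 722 against 1969 CPM (log2 -1.45). The log2 ratio was -1.30 for Pfkl, -1.49 for Bnip3 and -1.16 for Egln1. Slc16a3 was at 3.22 against 94.3 CPM (log2 -4.87, -5.41 to -4.38), and its share of both monocarboxylate transporters' UMIs was 5.52% at 8 weeks and 75.1% at P10. None of these intervals overlapped between ages. The 8-week class was mostly cluster 5 (581 cells, led by Mgp, Hp and Pcp4) and the P10 class clusters 10, 11, 17, 19, 20 and 26. With coarser clusters (Leiden resolution 0.5) most of those 8-week cells fell outside the class, and Slc2a1 turned to -0.54 and Slc2a3 to -0.11, while Hk2 (1.64), Pfkfb3 (2.16), Pgk1 (-1.42) and Slc16a3 (-5.44) kept their direction.

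In hypertrophic chondrocyte-like cells 8 of 33 genes were at least 2-fold higher at 8 weeks (25.3% of all genes) and 9 at least 2-fold lower (4.94%), with a median of 0.32 against 0.39 for all genes. The higher ones were Slc2a3, Hk2, Pfkfb3, Ldhb, Vegfa, Adm, Ddit4 and Ankrd37, and Slc2a1 (log2 0.72) and Hif1a (0.77) stayed short of 2-fold. At P10, Slc2a3, Adm and Ankrd37 rested on 20, 9 and 13 UMIs in this class. The lower ones were Pfkl, Aldoc, Tpi1, Gapdh, Pgk1, Pgam1, Eno1, Ldha and Slc16a3. That median turned to -0.56 in thinned cells and to -0.34 with each library clustered on its own. In cluster 9, which held 147 cells of 8 weeks and 297 of P10 and was led by Col10a1 and Ihh, 3 of 28 genes were at least 2-fold higher (15.9%) and 12 at least 2-fold lower (8.54%). There Hk2 stood at 316 CPM at 8 weeks and 77.1 CPM at P10 (log2 2.04), Vegfa at 304 against 71.4 CPM (log2 2.09) and Pfkfb3 at 113 against 24.0 CPM (log2 2.24). Pgk1 was at 118 against 896 CPM (log2 -2.92), Tpi1 at 123 against 768 CPM (log2 -2.64) and Slc16a3 at 4.62 against 138 CPM (log2 -4.91). Here the same cluster held cells of both ages, and the intervals did not overlap for any of these genes.

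In tendon fibroblast-like cells 9 of 33 genes were at least 2-fold higher at 8 weeks (25.9% of all genes) and 3 at least 2-fold lower (7.38%), with a median of -0.01 against 0.43 for all genes. That median turned above 0 under 3 of 11 alternatives, with a range of -0.49 to 0.21. Of 6 genes of the entry and control steps, 5 had an interval above 0 and Pfkl had one below (log2 -0.80), and of the 2 glucose transporters Slc2a1 was higher and Slc2a3 (-0.24) had an interval that spanned 0. Ndrg1 stood at 330 CPM at 8 weeks and 33.4 CPM at P10 (log2 3.31), Hk2 at 514 against 74.9 CPM (log2 2.78) and Vegfa at 93.3 against 25.6 CPM (log2 1.86). Pgk1 was at 350 against 537 CPM (log2 -0.61), Gapdh at 1548 against 2048 CPM (log2 -0.40) and Slc16a3 at 61.5 against 216 CPM (log2 -1.82). The 8-week class was cluster 4 (led by Cilp, Vcan and Grem1) and the P10 class cluster 24 (led by Mfap4, Thbs4 and Tnmd), with at most 2 cells of the other age in each. With each library clustered on its own, Slc2a1 in this class turned from 1.13 to -0.05. Endothelial-like cells, all of cluster 8 at both ages, had 0 of 26 genes at least 2-fold higher (6.94% of all genes) and 3 at least 2-fold lower (2.74%): Slc2a3 (log2 -1.91), Slc16a3 (-2.23) and Eno1 (-1.07). In endothelial-like cells the 14 chondrocyte markers summed to 1942 CPM at 8 weeks and 16955 CPM at P10. Markers of another class were called in 24.4% of these cells at 8 weeks and 32.2% at P10. The part of free RNA in the endothelial-like ratios was not tested. Slc16a3 was lower at 8 weeks in all 5 classes compared between ages, with log2 ratios between -4.87 and -1.33, and Gapdh, Pgk1, Tpi1 and Eno1 were too. For these 5 genes no alternative that gave a value turned the sign in any of the 5 classes.

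**Figure D2:**
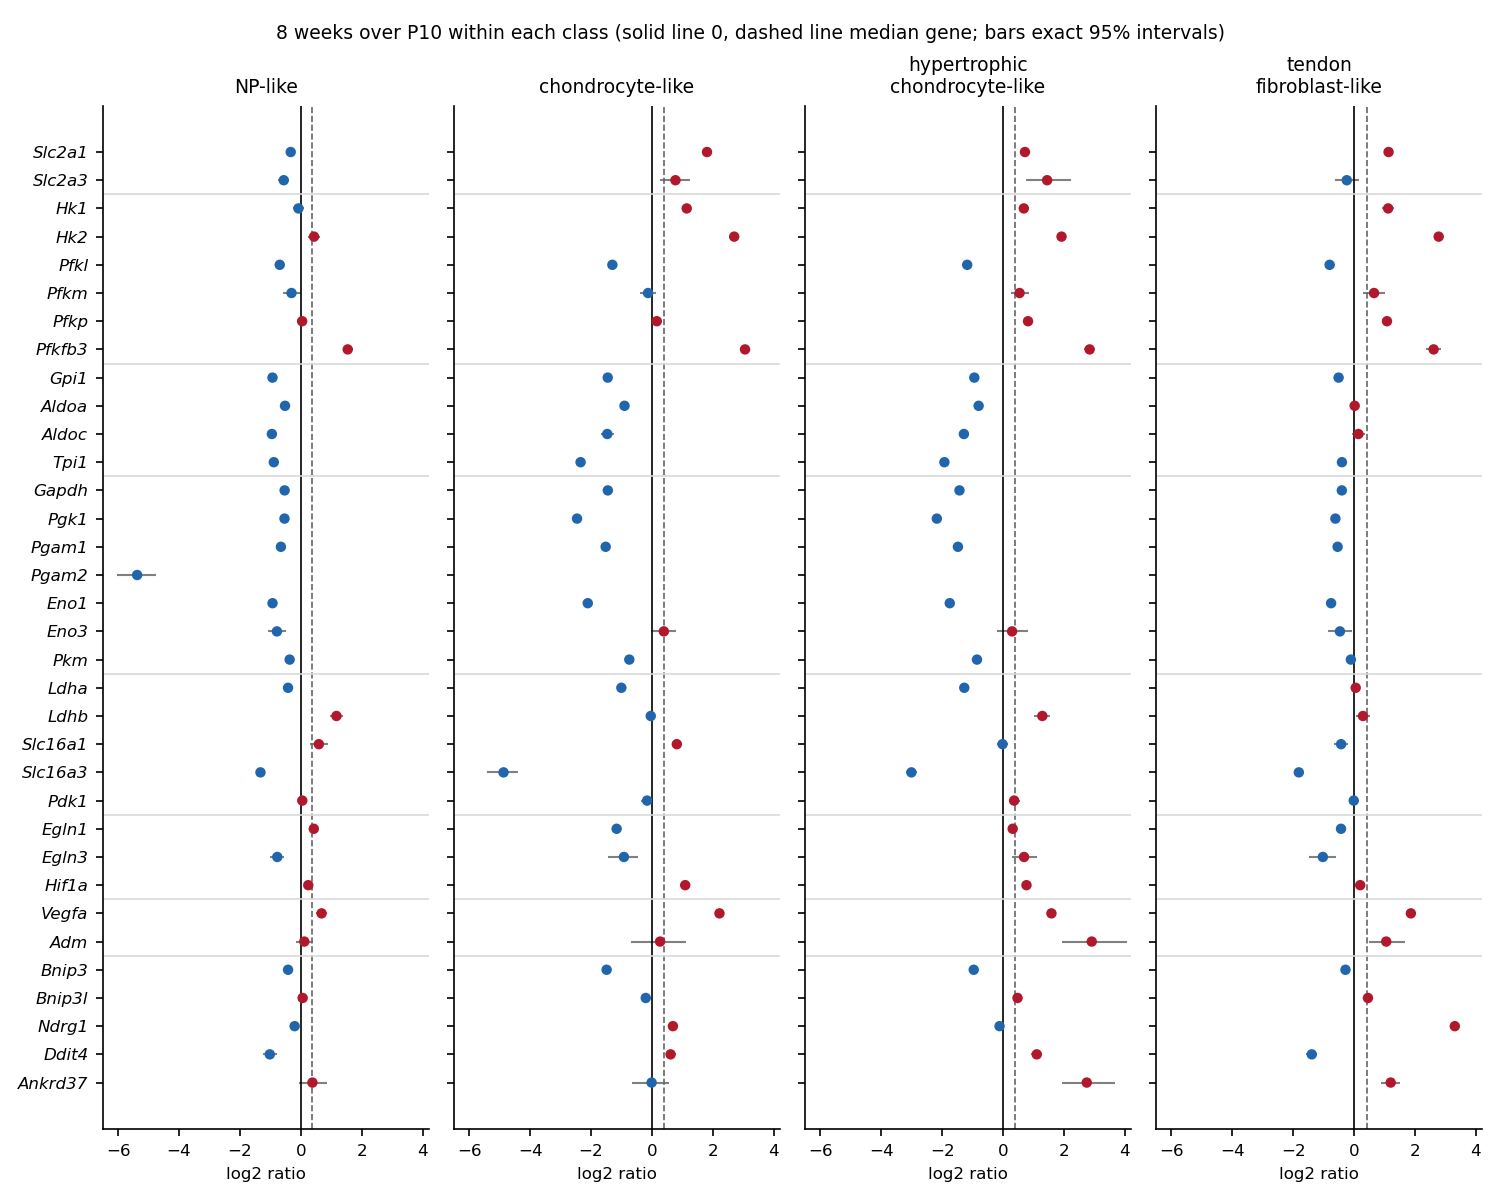
Log2 ratio of 8 weeks over P10 for each gene with at least 100 UMIs in 4 classes, red above 0 and blue below; bars are exact 95% intervals, the solid line is 0 and the dashed line the median of all genes. Hk2, Pfkfb3 and Vegfa lie right of 0 in all 4 panels, Gapdh, Pgk1, Tpi1 and Slc16a3 left of it.

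Between classes, NP-like cells stood above chondrocyte-like cells for most of the pathway at both ages. At 8 weeks 20 of 33 genes were at least 2-fold higher in NP-like cells (26.6% of all genes) and 6 at least 2-fold lower (14.1%), with a median log2 ratio of 1.54 against 0.36 for all genes. At P10 the counts were 19 of 34 higher (21.2%) and 2 lower (15.4%), with a median of 1.12 against 0.25. At 8 weeks Slc16a3 stood at 103 CPM in NP-like and 3.22 CPM in chondrocyte-like cells (log2 5.00, 4.51 to 5.54), Tpi1 at 855 against 110 CPM (log2 2.96) and Pgk1 at 986 against 129 CPM (log2 2.94). Bnip3 was at 263 against 36.3 CPM (log2 2.86) and Adm at 18.0 against 1.27 CPM (log2 3.83). The 6 lower ones at 8 weeks were Slc2a1, Hk2, Slc16a1 (log2 -1.18), Vegfa, Ddit4 (log2 -1.26) and Hif1a, and the 2 at P10 Hk2 and Hif1a. Hk2 stood at 52.9 CPM in NP-like and 544 CPM in chondrocyte-like cells at 8 weeks (log2 -3.36), and at 39.2 against 83.5 CPM at P10 (log2 -1.09). Hif1a itself was at 116 against 582 CPM at 8 weeks (log2 -2.33) and 97.9 against 273 CPM at P10 (log2 -1.48), and Vegfa at 68.4 against 335 CPM at 8 weeks (log2 -2.29). Slc2a1 was on opposite sides at the 2 ages, at 398 against 930 CPM at 8 weeks (log2 -1.22) and 501 against 265 CPM at P10 (log2 0.92). The 8-week value turned to 1.16 with coarser clusters.

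**Figure D3:**
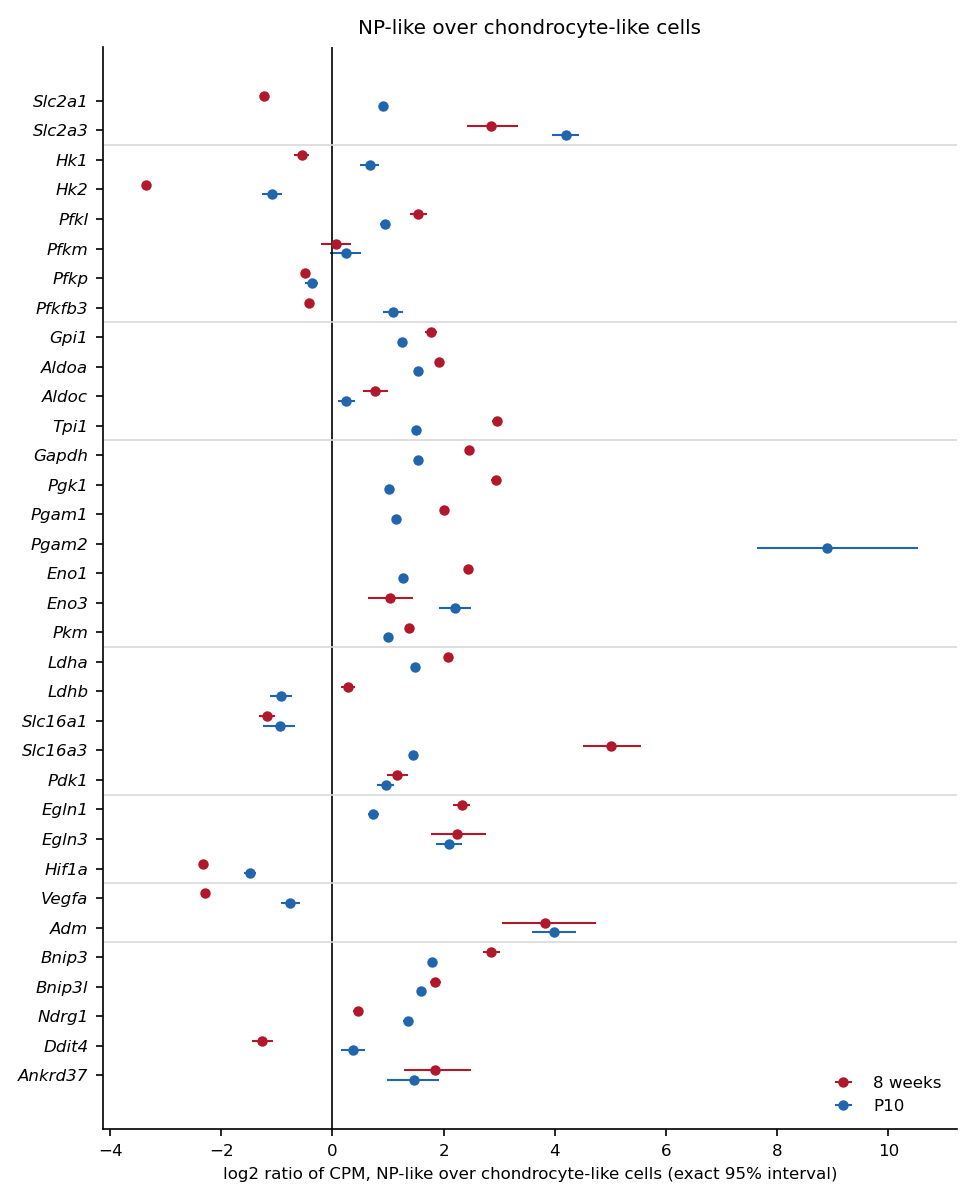
Log2 ratio of NP-like over chondrocyte-like cells for each gene with at least 100 UMIs, at 8 weeks (red) and at P10 (blue); bars are exact 95% intervals. Most genes from Gpi1 to Ldha lie right of 0 and further right at 8 weeks, while Hk2, Hif1a and Vegfa lie left of 0 at both ages.

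Against tendon fibroblast-like cells, 13 of 33 genes were at least 2-fold higher in NP-like cells at 8 weeks (23.0% of all genes) and 4 at least 2-fold lower (11.7%), with a median of 0.81 against 0.36 for all genes. At P10, 22 of 34 were at least 2-fold higher (22.7%) and 2 lower (11.3%), with a median of 1.40 against 0.35, the same with Pgam2 set at its bound. Pgam2 had 0 UMIs in P10 tendon fibroblast-like cells, where 3 UMIs would be 0.209 CPM. Hk2 (log2 -3.28 at 8 weeks, -0.94 at P10) and Hif1a (-1.77 and -1.81) were lower in NP-like cells here too, at both ages. The 2 genes at least 2-fold lower at P10 were Hif1a and Ddit4 (log2 -1.13). Ndrg1 changed sides, at -1.13 at 8 weeks and 2.38 at P10.

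Ranked over classes of at least 50 cells, NP-like cells came first for 19 of 34 genes among 7 classes at 8 weeks and for 18 of 34 among 11 classes at P10. For 17 and 16 of these, the interval was clear of every other ranked class. The 28 neutrophil-like cells of 8 weeks were too few to be ranked. They held 112 Slc16a3 and 37 Slc2a3 UMIs at a median of 1911.5 UMIs per cell. The 2302 NP-like cells held 4529 and 1336 at a median of 15454.5. First place of NP-like cells for these genes at 8 weeks therefore holds among the ranked classes only. Chondrocyte-like cells came first at 8 weeks for Slc2a1, Hk1, Hk2, Pfkfb3, Slc16a1, Vegfa and Hif1a, of which Hk1 and Pfkfb3 did not stand clear of the next class. At P10 neutrophil-like cells came first for Slc2a3 (322 CPM) and Slc16a3 (615 CPM), Schwann-like cells for Ldhb (520 CPM) and Ndrg1 (741 CPM), and muscle satellite-like cells for Pfkp (172 CPM). Tendon fibroblast-like cells came first at P10 for Hif1a (345 CPM). In endothelial-like cells Adm (32.0 CPM) and Ddit4 (77.7 CPM) were the highest of the 7 classes at 8 weeks. The part of free RNA in these ranks was not tested.

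**Figure D4:**
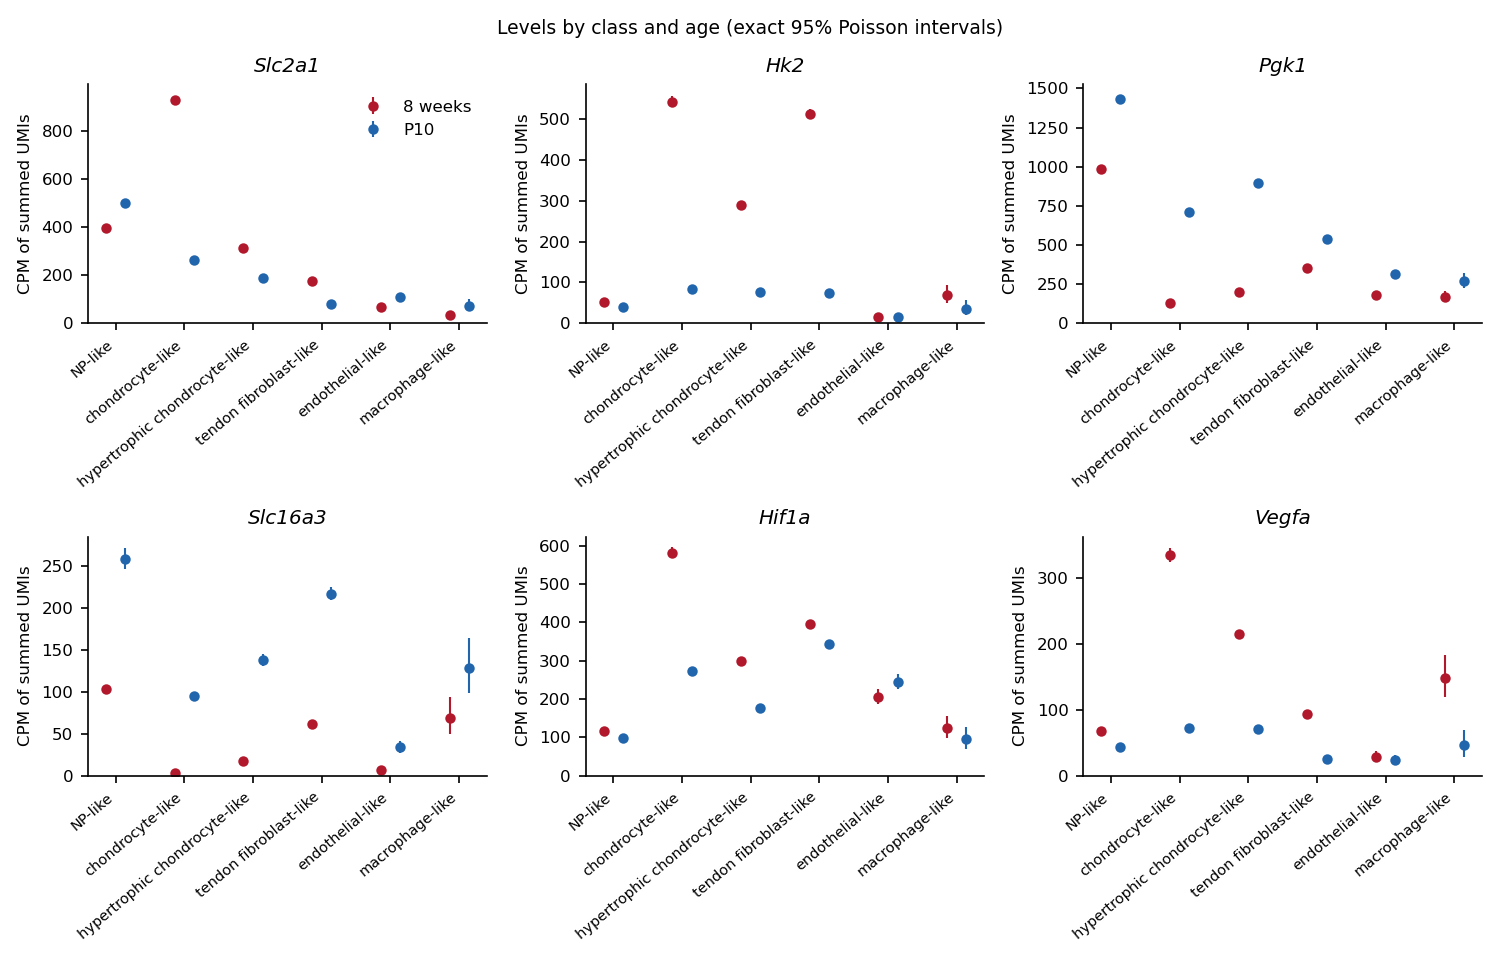
Levels of 6 genes (CPM of summed UMIs, linear axes from 0) in 6 classes at 8 weeks (red) and P10 (blue), with exact 95% Poisson intervals. Pgk1 is highest in NP-like cells at both ages, whereas Slc2a1, Hk2, Hif1a and Vegfa are highest in chondrocyte-like cells at 8 weeks.

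Other genes of the pathway gave the comparison a background. In NP-like cells 7 of 23 passing other glycolysis genes (of 39 listed) were at least 2-fold higher at 8 weeks and 1 at least 2-fold lower, with a median of 0.46, against 15.1% and 2.76% of all genes. The highest, Pfkfb2, Pdk4 and Slc16a4, were all rare, at 4.42, 2.41 and 4.14 CPM at 8 weeks. They held 194, 106 and 182 UMIs at 8 weeks and 8, 5 and 9 at P10. They thus passed the UMI minimum through the 8-week sum. Rare genes pass this way more readily when higher at 8 weeks, so the count of higher genes leans on the minimum. Pgm2, phosphoglucomutase, stood at 26.7 against 58.2 CPM (log2 -1.13). Of 36 passing other hypoxia genes (39 listed), 4 were at least 2-fold higher, led by Errfi1 (363 against 146 CPM), Wsb1 and Vldlr, and 2 lower (the same shares of all genes apply), Lox (5.42 against 26.0 CPM) and Selenbp1. The oxidative phosphorylation genes had 1 gene past 2-fold in each direction among 88, with a median of -0.06, and the 18 genes of the tricarboxylic acid cycle had 0 in either, with a median of -0.05. Relative to the median gene (0.35), 75 of the 88 and 15 of the 18 lay below it, with medians of -0.41 and -0.40. In chondrocyte-like cells 0 of 87 oxidative phosphorylation genes were at least 2-fold higher at 8 weeks and 4 at least 2-fold lower, with a median of -0.47, against 24.5% and 7.24% of all genes.

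Car9, the carbonic anhydrase widely used as a HIF-1 marker, stood at 51.0 CPM in NP-like and 0.585 CPM in chondrocyte-like cells at 8 weeks (log2 6.45). Car12, its relative, stood at 0.865 against 66.6 CPM (log2 -6.27), and Hilpda, a lipid droplet protein, at 13.2 against 231 CPM (log2 -4.13). Ppp1r3c, a glycogen-targeting subunit, was at 118 against 9.95 CPM (log2 3.57) and Plod2, a collagen lysyl hydroxylase, at 152 against 1198 CPM (log2 -2.98). Over that comparison 13 of 37 other hypoxia genes were at least 2-fold higher in NP-like cells and 8 at least 2-fold lower, against 26.6% and 14.1% of all genes. At P10 the count was 12 higher and 7 lower of 37, against 21.2% and 15.4% of all genes, with Epas1 (47.7 against 2.44 CPM) the highest. Of the oxidative phosphorylation genes, 42 of 87 were at least 2-fold higher in NP-like cells at 8 weeks (26.6% of all genes) and 5 of 87 at P10 (21.2% of all genes).

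The lineage reporter was read from WPRE4, a viral element in the matrix of exogenous sequences, at a threshold of 10 UMIs. WPRE4-high NP-like cells numbered 1287 at 8 weeks and 203 at P10, and WPRE4-low ones 1015 and 101. None of 33 passing genes was at least 2-fold apart at either age, with backgrounds at 8 weeks of 0.117% higher and 0.765% lower and at P10 of 0.435% and 0.151%. The median log2 ratio of WPRE4-high over WPRE4-low cells was 0.06 at 8 weeks and 0.04 at P10, against -0.04 and -0.004 for all genes. Adm was the furthest above 0 among the genes with an interval clear of 0 at both ages, at 20.8 against 13.8 CPM at 8 weeks (log2 0.59, 0.37 to 0.82) and 18.7 against 11.1 CPM at P10 (log2 0.75, 0.06 to 1.51). Slc2a3 (0.21 and 0.62), Egln3 (0.47 and 0.70), Ndrg1 (0.39 and 0.23), Gapdh (0.15 and 0.06) and Aldoa (0.08 and 0.06) had intervals above 0 at both ages as well. Ankrd37 (-0.47) and Slc16a1 (-0.25) had intervals below 0 at 8 weeks, and Pgam2 (-0.52), Eno1 (-0.12) and Pgam1 (-0.10) at P10. The Pgam2 interval covers counting error only, and 5 of the 32 P10 cells with the gene held 68.4% of its UMIs. A threshold in UMIs favours deeper cells, and the part of depth in the WPRE4 ratios was not tested.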

How the data were processed

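Single-cell RNA was read from 8 GEO samples, 4 per age. Per the submitters' processing notes, Cell Ranger 3.1.0 and Seurat 3 were used on mm10 (GRCm38), and the matrices' headers give the software version 3.1.0. Raw UMI counts were deposited by the authors for genes and, in a second matrix of each age, for exogenous sequences. The deposited feature and barcode lists hold other content, the text names of genes and cells. How reads matching several genes were handled is not given in the sources used here.

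Cells with at least 500 genes, 1000 UMIs and at most 15% mitochondrial UMIs were kept (6481 at 8 weeks, 6999 at P10). Scrublet called 139 doublets (2.14%) at 8 weeks, which were removed, and 0 at P10, where it has not worked. Both libraries were clustered together with scanpy 1.11.5 (2000 variable genes without the members and pathway lists, 30 components, 15 neighbours, Leiden resolution 1). Clusters were named from 21 fixed marker lists, which needed at least 3 markers. Ratios are of CPM of summed UMIs with exact conditional binomial intervals, and levels have exact Poisson intervals. Ratios were taken for genes that reached 100 UMIs when the sums of both groups were added. The ratio step was tested on simulated data. Gene positions came from GENCODE M21 and promoter windows from RefSeq. Alternatives covered scaling, cell filters, doublets, clustering, depth, weighting and the UMI minimum.

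All members are described. Of each pathway list, the 3 highest and 3 lowest genes past 2-fold were eligible for naming. The members, the lists and the WPRE4 threshold were chosen with earlier results of these data known, and the rule for cells with markers of another class was set after seeing the data.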

Additional observations from a re-analysis of the deposited data

Results flagged for a closer look

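For 12 pairs of a gene and a class, the log2 ratio of 8 weeks over P10 had opposite signs in NP-like cells and in the other class, with each interval on its own side of 0, each ratio on its own side of its class's median gene, and the ratios at least 2-fold apart. Each age is 1 library, so none of these differences was tested.

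Slc2a1 was -0.33 in NP-like cells, against 1.81 in chondrocyte-like, 0.72 in hypertrophic chondrocyte-like and 1.13 in tendon fibroblast-like cells. Its chondrocyte-like value turned to -0.54 at a Leiden resolution of 0.5, and its tendon fibroblast-like value to -0.05 with each library clustered on its own. Slc2a3 was -0.56 in NP-like cells, against 0.77 in chondrocyte-like and 1.45 in hypertrophic chondrocyte-like cells, and the first of these rests on 43 UMIs at 8 weeks. Ddit4 was -1.02 in NP-like cells, against 0.61 in chondrocyte-like, 1.11 in hypertrophic chondrocyte-like and 0.33 in endothelial-like cells. The chondrocyte-like value turned to -0.0029 in thinned cells. Egln1 was 0.43 in NP-like and -1.16 in chondrocyte-like cells. Egln3 was -0.77 in NP-like and 0.69 in hypertrophic chondrocyte-like cells, and the second value turned to -3.02 with each library clustered on its own. Slc16a1 was 0.59 in NP-like and -0.43 in tendon fibroblast-like cells. Ndrg1 was -0.20 in NP-like and 3.31 in tendon fibroblast-like cells.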

How the results depend on the processing

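No paired analysis was possible because the matrices carry no replicate numbers for their cells, and for the same reason no replicate could be left out. The median over the 34 genes kept its sign under every alternative with a value in NP-like, chondrocyte-like and endothelial-like cells between ages and in the contrasts between classes and by WPRE4. In hypertrophic chondrocyte-like cells it turned below 0 under 5 alternatives, down to -0.56, and in tendon fibroblast-like cells above 0 under 3, up to 0.21. Centred on the median gene, the median of NP-like cells between ages was -0.75, with 11 genes at least 2-fold lower and 1 higher (679 and 819 of all 11318 genes), and that of tendon fibroblast-like cells -0.45. Without mitochondrial, ribosomal and hemoglobin genes in the total, 7 genes were at least 2-fold lower in NP-like cells, against 3.72% of all genes under that scaling. In cells thinned to 2000 UMIs, 1 gene was at least 2-fold higher there (928 of 5803 genes tested were), and the P10 median of NP-like over tendon fibroblast-like cells was 1.58. With the ages clustered separately, the tendon fibroblast-like median between ages was -0.49 and the 8-week median of NP-like over tendon fibroblast-like cells 1.60. At Leiden resolutions of 0.5 and 2, and with the members among the variable genes, tendon fibroblast-like cells of 8 weeks were too few for a value. Of the medians and counts under other settings, 145 stayed within the spread set for them and 9 did not. Ratios of single genes in NP-like cells between ages moved more. Centring moved 32 of 34, and leaving mitochondrial, ribosomal and hemoglobin genes out of the total moved 21. Thinning moved 16 (12 stayed), means of per-cell CPM 15 and separate clustering 13. Leiden resolutions of 0.5 and 2, the 10% mitochondrial limit and the other UMI minimums moved 0. The remaining settings moved 1 to 10. In NP-like cells 29 of 34 genes kept the sign of their ratio in every alternative, and Pfkp, Pdk1, Bnip3l, Adm and Hif1a, with log2 ratios of 0.04 to 0.25, did not. Leaving out the clusters led by cycle genes and centring the WPRE4 ratios were added after seeing the data.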
